A study of Homo sapiens with 6 samples.

Results

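In a pooled shRNA screen in HUH7 cells, an established human hepatocellular carcinoma (HCC) line, 9 target transcripts outside the candidates that the study followed up each lost more than 1 of their shRNAs from the final population. They were TEX41 (ENST00000451774), LINC00511 (ENST00000580948), RASAL2-AS1 (NR_027982), ENST00000382641, ENST00000564442, ZNF217-AS1 (NR_110051), ENST00000511234, ENST00000567151 and LOC101928335 (NR_110395). Of their 44 shRNAs, 19 were depleted, 2 were enriched and 22 were neither, and 1 had too few reads to be tested. The depleted shRNAs kept 15% to 59.0% of their representation in the input library, with a median of 37.3%. In 8 of the 9 targets, shRNAs with a lower and shRNAs with a higher mean after selection stood side by side, and LINC00511 was the exception, with 4 of 4 shRNAs lower.

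The 9 targets were chosen by the log2(fold change) and adjusted p-value of this same comparison, so the fall of their shRNAs is a description of the choice and not evidence for it. They comprise 44 of the 7873 shRNAs of the library and 9 of its 1670 target transcripts. Values that the choice did not use are those of shRNAs against other transcripts of LINC00511, of library shRNAs that share a seed or overlap with a depleted shRNA, and the sequence and position of the targets.

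A short hairpin RNA (shRNA) is transcribed from an integrated vector and cut by Dicer into a short duplex, of which 1 strand, the guide, directs the Argonaute complex to RNA that it pairs with. Pairing over the whole guide leads to cleavage of the RNA, and pairing of the seed near the 5′ end of the guide alone can repress other transcripts in the way of a microRNA. Long non-coding RNAs (lncRNAs) act in the nucleus on nearby or distant genes or in the cytoplasm on proteins, mRNAs and microRNAs. Their exons often contain copies of transposable elements, so that a target in such an exon can also be present in other transcripts. In a survival screen, an shRNA that slows growth or kills its host cell becomes rarer among the integrated vectors.

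Reads were counted per shRNA in 3 libraries of the input pool, which is the plasmid pool in the pLKO.1 vector before virus production, and in 3 libraries from genomic DNA of HUH7 cells that had been infected with the lentiviral pool at a low multiplicity, selected on puromycin and kept in culture for several more weeks. All shRNAs were in the same pool and the same cells, and there was no untreated cell population. The libraries held 1525256 to 4013368 counts. The input libraries differed from each other by little more than counting noise (chi-square per degree of freedom 1.09 to 1.11), and the selected libraries by far more (10.8 to 11.9). The labels do not say that the 3 selected libraries are separate infections, so the p-values here reflect only how much these libraries vary, which may be technical variation.

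Counts are given as normalized counts, that is divided by the effective size of the library (TMM) and scaled to the mean effective size over the 6 libraries. The log2(fold change) divides the input level by the level in selected cells, so that a positive value means fewer copies after selection. An shRNA is depleted where this value is 0.75 or more, and enriched where it is -0.75 or less, both at an edgeR adjusted p-value not above 0.05. A target met the candidate rule with 2 or more shRNAs of at least 1, or 3 or more of at least 0.75, that all passed at this p-value. Within a target, shRNAs are numbered in 5′ to 3′ order.

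The targets of 18 of the 19 depleted and both enriched shRNAs are shown with those of 6 further shRNAs that overlap one of them by 10 or more of the 21 bases, because the overlapping pairs allow shRNAs against nearly the same stretch of RNA to be compared. Each is written 5′ to 3′ on the strand of the RNA. Capitals mark target bases 14 to 20, which pair with guide bases 2 to 8, the seed. Coordinates are those of the exact match in GRCh37 where the targets of a transcript lie together in order, inside a GENCODE transcript of the listed or matching gene except for ENST00000567151, where no gene is annotated, and ENST00000564442, whose targets fall in an RPAP2 transcript. Where a target crosses an exon junction, the coordinates run from its first to its last base.
TEX41 shRNA 2 (depleted), chr2:145831064-145831084, plus strand: gtgtgatcacggcTCACTATa
TEX41 shRNA 3, chr2:145831074-145831094, plus strand: ggctcactatagcCTCATCCt
TEX41 shRNA 4 (depleted), chr2:145831087-145831107, plus strand: ctcatcctgctgcACTGAAGt
TEX41 shRNA 5, chr2:145831097-145831117, plus strand: tgcactgaagtgaTCCTCTTg
LINC00511 shRNA 1, chr17:70416847-70416867, minus strand: tcatctctgaggaCCTCTACa
LINC00511 shRNA 2 (depleted, across a junction), chr17:70400955-70416858, minus strand: aggacctctacagGGCTGGAt
LINC00511 shRNA 4 (depleted), chr17:70400912-70400932, minus strand: caccaggaagtttAGCAGAAc
RASAL2-AS1 shRNA 1 (depleted), chr1:178060880-178060900, minus strand: tcgttcaactcccACTTATAa
RASAL2-AS1 shRNA 2 (depleted), chr1:178060860-178060880, minus strand: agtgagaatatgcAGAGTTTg
RASAL2-AS1 shRNA 5 (depleted), chr1:178060748-178060768, minus strand: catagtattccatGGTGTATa
ENST00000382641 shRNA 1 (depleted), chr22:27063905-27063925, minus strand: acagtgactcccaCCTGTAAt
ENST00000382641 shRNA 3 (depleted), chr22:27063812-27063832, minus strand: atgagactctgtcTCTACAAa
ZNF217-AS1 shRNA 2 (depleted), chr20:52191194-52191214, plus strand: cgtggtggcacgtGCCTATTa
ZNF217-AS1 shRNA 3 (enriched), chr20:52191235-52191255, plus strand: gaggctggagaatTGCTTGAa
LOC101928335 shRNA 3 (depleted), chrX:107139504-107139524, minus strand: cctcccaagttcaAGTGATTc
LOC101928335 shRNA 5 (depleted), chrX:107139396-107139416, minus strand: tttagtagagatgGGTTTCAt
ENST00000511234 shRNA 3 (depleted), chr4:136713832-136713852, minus strand: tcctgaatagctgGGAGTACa
ENST00000511234 shRNA 5 (depleted), chr4:136713734-136713754, minus strand: ctcaatctcctcaCCTCATGa
ENST00000567151 shRNA 2, chr2:239929692-239929712, minus strand: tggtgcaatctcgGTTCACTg
ENST00000567151 shRNA 3 (enriched), chr2:239929685-239929705, minus strand: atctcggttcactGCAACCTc
ENST00000567151 shRNA 4 (depleted), chr2:239929652-239929672, minus strand: tcaagcaattcttCCTGTCTc
ENST00000567151 shRNA 5 (depleted), chr2:239929644-239929664, minus strand: ttcttcctgtctcAGCCTCCt
ENST00000564442 shRNA 2, chr1:92865925-92865945, plus strand: ctggagcacagtgACAGTCAt
ENST00000564442 shRNA 3 (depleted), chr1:92865936-92865956, plus strand: tgacagtcatagcTCACTATa
ENST00000564442 shRNA 4, chr1:92865947-92865967, plus strand: gctcactatagccTCAGACTc
ENST00000564442 shRNA 5 (depleted), chr1:92865988-92866008, plus strand: cacctcaacctccAGAGTATc

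The whole library had 494 depleted shRNAs among the 7232 tested (6.83%) and 423 enriched ones (5.85%). Of the 1639 target transcripts with at least 2 tested shRNAs, 17 (1.04%) met the candidate rule, and the 9 described here are among those 17 by choice. RASAL2-AS1 had 3 depleted shRNAs and each of the others had 2. All 19 depleted shRNAs had lower normalized counts in every selected library than in any input library, a pattern shown by 1849 of the tested shRNAs (25.6%). Their adjusted p-values ran from 0.00116 to 0.0350 (edgeR). Among the 22 that were neither depleted nor enriched, 3 fell and 4 rose with adjusted p-values up to 0.05 without reaching the limit on fold change, and 15 did not pass the test.

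Just inside the limit of 0.75 lay RASAL2-AS1 shRNA 1, with a log2(fold change) of 0.75, and the nearest shRNA below it was LOC101928335 shRNA 4 with 0.53. At the limit of 1, ENST00000382641 shRNA 3 lay just inside with 1.04 and RASAL2-AS1 shRNA 5 just outside with 0.86. ENST00000511234 shRNA 1 was just outside the enriched calls with -0.75.

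Many of the calls were lost when an input library was left out. Without input replicate 1, 2 or 3, only 8, 4 or 6 of the 19 shRNAs remained depleted, and 0, 0 or 1 of the 9 targets met the candidate rule, while 253, 279 or 258 shRNAs of the whole library were then depleted. Without selected replicate 1, 2 or 3, 17, 16 or 16 of the 19 remained depleted and 5, 7 or 6 targets met the rule. The depleted shRNAs of the whole library then numbered 603, 569 or 569, more than the 494 with all libraries. Only TEX41 shRNA 4, RASAL2-AS1 shRNA 2, ENST00000564442 shRNA 5 and LOC101928335 shRNA 3 were called depleted whichever of the 6 libraries was left out. The other 15 lost the call without at least 1 input library, with adjusted p-values of up to 0.153 (edgeR). 7 of them also lost it without a selected library. Without selected replicate 3 the adjusted p-value (edgeR) was 0.0564 for LINC00511 shRNA 4, 0.0758 for ENST00000382641 shRNA 3 and 0.0944 for ENST00000564442 shRNA 3. Without selected replicate 2 it was 0.0507 for ENST00000511234 shRNA 3 and 0.0600 for ENST00000567151 shRNA 4. The log2(fold change) of RASAL2-AS1 shRNA 1 came to 0.71 without selected replicate 1 and 0.70 without replicate 2, and that of RASAL2-AS1 shRNA 5 to 0.68 without replicate 1, below the limit. When DESeq2 was run with its beta prior, a shrinkage of the fold changes of sparsely counted shRNAs, 17 of the 19 were still depleted. The whole library then had 390 depleted shRNAs. The log2(fold change) of the 19 was at most 1.33 in that run, and none of the 9 targets met the rule. The study tested its counts with an earlier version of DESeq2, not edgeR, and its methods do not say whether a beta prior was used. The 9 targets are not among the candidates that the study named by this rule in its own fit.

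TEX41 and LINC00511 are named lncRNAs that lie apart from protein-coding genes. TEX41 is named for its expression in testis and lies between ZEB2, a repressor of E-cadherin, and ACVR2A, an activin receptor. Its 5 targets fall within 95 bases of exon 5, the last exon of the listed transcript. TEX41 shRNA 2 had 26.3, 21.6 and 23.8 normalized counts in the 3 input libraries and 10.8, 5.38 and 5.36 in the 3 selected libraries. TEX41 shRNA 4 had 92.1, 89.8 and 97.3 in the input libraries and 39.5, 14.3 and 21.4 after selection. In both, selected replicate 1 kept the most copies. This is a log2(fold change) of 1.83 (standard error 0.51) for shRNA 2 and 1.97 (standard error 0.37) for shRNA 4. TEX41 shRNA 3 shares 11 bases with shRNA 2 and 8 with shRNA 4 and had 40.4 ± 10.2 normalized counts after selection against 31.9 ± 7.98 before (SD, n = 3), a log2(fold change) of -0.36. TEX41 shRNA 5 shares 11 bases with shRNA 4 and held 84.7% of its 702 input counts. Neither of these overlapping neighbours was depleted.

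LINC00511, a lncRNA of the region between SOX9 and SLC39A11 that is described as raised in several cancers, has 4 shRNAs under the listed transcript, with targets within 73 bases of exons 2 and 3. LINC00511 shRNA 2, whose target spans the junction of these exons and has no uninterrupted match in the genome, had 139, 150.1 and 151 normalized counts in the input libraries and 26.9, 69.9 and 67.0 in the selected libraries. LINC00511 shRNA 4 had 74.9, 102 and 70.4 before and 5.39, 37.6 and 30.1 after selection. Here selected replicate 1 was the lowest for both shRNAs, with only 3 reads for shRNA 4. Their log2(fold change) was 1.37 (standard error 0.31) and 1.66 (standard error 0.49). LINC00511 shRNA 1 shares 12 bases with shRNA 2, and had 397 ± 34.7 normalized counts before and 338 ± 40.7 after selection (log2(fold change) 0.23, adjusted p = 0.208, edgeR). shRNA 3 had 191 ± 1.17 and 176 ± 67.3, with 253 in selected replicate 1 and 134 and 139 in the others, so its groups overlapped.

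The library also targets LINC00511 through 2 other transcripts, ENST00000577828 and ENST00000453722, with 5 shRNAs each that had no part in the choice. None of these 10 was depleted with edgeR or with DESeq2, beside 6.83% of the library. At an unadjusted p-value under 0.05 in edgeR, 1 of the 10 fell and 1 rose. The one that rose, ENST00000453722 shRNA 3, also passed after adjustment (log2(fold change) -0.55, adjusted p = 0.0466, edgeR) without reaching the limit on fold change. Their log2(fold change) ran from -0.83 to 0.39 with a median of -0.17, and 8 of the 10 had a higher mean after selection. ENST00000577828 shRNA 2 shares 14 bases with the depleted LINC00511 shRNA 4 and came to a log2(fold change) of only 0.17 (standard error 0.09) beside 1.66. ENST00000577828 shRNA 1 shares 11 bases with LINC00511 shRNA 3 and had -0.45 (standard error 0.37). Of the 5 shRNAs of ENST00000453722, shRNA 1 has a target with 47767 exact matches in the genome and shRNA 3 one with 4839.

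The next targets are lncRNAs that are antisense to another gene by position or, for RASAL2-AS1, by name. Transcripts of this kind can affect the gene on the opposite strand, and an shRNA is directed only to the strand its guide pairs with. RASAL2-AS1 is named after RASAL2, a RAS GTPase-activating protein whose gene begins 2339 bases beyond its targets on chromosome 1. Its 5 targets fall within 153 bases of exon 2 of its 2 exons, and no gene is annotated on the opposite strand there. RASAL2-AS1 shRNA 1 was the most abundant depleted shRNA and had 423, 472 and 435 normalized counts before and 244, 244 and 296 after selection. RASAL2-AS1 shRNA 2 had 44.5, 73.9 and 63.1 before and 3.59, 6.27 and 17.4 after selection, the lowest share kept by any of the 44 shRNAs. RASAL2-AS1 shRNA 5 had 170.0, 160.3 and 175 before and 62.9, 116 and 95.8 after selection. The log2(fold change) was 0.75 (standard error 0.13), 2.57 (standard error 0.52) and 0.86 (standard error 0.23), so that a single shRNA exceeded 1 and the candidate rule was met through the limit of 0.75. Through that limit all 3 shRNAs were needed. Without the filter on low counts, shRNA 1 came to 0.75, just below the limit, and RASAL2-AS1 did not meet the rule. Without selected replicate 1 the rule was not met either, with 0.71 for shRNA 1 and 0.68 for shRNA 5. Without selected replicate 2, shRNA 1 came to 0.70, but shRNA 5 came to 1.04 and RASAL2-AS1 still met the rule. Summed over its 5 shRNAs, RASAL2-AS1 kept 69.6% of its input counts, the lowest share of the 9 targets. shRNA 3 held 193 ± 29.3 normalized counts before and 173 ± 85.7 after selection, and shRNA 4 126 ± 4.31 and 155 ± 30.0. The target of shRNA 5 has 24208 exact matches in the genome, whereas that of shRNA 3 is present at a single place. On the strand that the guide pairs with, the target of shRNA 5 matches exons of 84 genes. Of these genes, 24 were matched in a protein-coding transcript.

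ENST00000382641 runs on chromosome 22 opposite MIAT, a lncRNA named for its association with myocardial infarction, and has its 5 targets within 225 bases of exon 3, the last exon. ENST00000382641 shRNA 1 had 36.4, 33.0 and 29.0 normalized counts before and 5.39, 2.69 and 15.4 after selection. ENST00000382641 shRNA 3 had 101, 86.4 and 119 before and 43.1, 71.7 and 34.2 after selection. The lowest selected library was replicate 2 for the one and replicate 3 for the other. This gave a log2(fold change) of 1.94 (standard error 0.59) and 1.04 (standard error 0.32). ENST00000382641 shRNA 2, which shares 1 base with shRNA 3, rose, with 538 ± 8.40 before and 703 ± 126 after selection (log2(fold change) -0.40, adjusted p = 0.0405, edgeR), and shRNA 4 fell from 874 ± 27.5 to 658 ± 68.3 (0.41, adjusted p = 0.0107, edgeR), both within the limit on fold change. shRNA 5 was not tested, with 2, 2 and 3 reads in the input libraries and 1, 9 and 8 in the selected libraries. Because shRNAs 2 and 4 are far more abundant, the sum over the 5 shRNAs kept 91.9% of its input counts.

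ZNF217-AS1 lies opposite ZNF217, a zinc finger transcription factor whose gene is amplified in several cancers, and its 5 targets fall within 252 bases of exon 6. ZNF217-AS1 shRNA 1 had 39.5, 30.7 and 46.6 normalized counts before and 8.98, 17.0 and 14.7 after selection. ZNF217-AS1 shRNA 2 had 138, 147 and 148 before and 84.4, 24.2 and 22.1 after selection. The second of these was much higher in selected replicate 1 than in the other replicates. Their log2(fold change) was 1.46 (standard error 0.41) and 1.85 (standard error 0.46). ZNF217-AS1 shRNA 3 went the other way, with 222, 183 and 204 normalized counts before and 348, 356 and 394 after selection, a log2(fold change) of -0.85 (standard error 0.13). All 3 selected libraries were above all input libraries for this shRNA, and the same was true of shRNA 5 (174, 169 and 224 before, 397, 250.1 and 277 after), which rose with a log2(fold change) of -0.69. shRNA 4 shares 1 base with shRNA 3 and fell with 0.51. Within the same exon, ZNF217-AS1 therefore had 2 depleted, 1 enriched and 2 further shRNAs that passed the test in opposite directions. The target of the depleted shRNA 1 is present at 2518 places in the genome and in exons of 27 genes. Of these genes, 5 were matched in a protein-coding transcript. That of the depleted shRNA 2 is present at 1 place, and that of the enriched shRNA 3 at 557.

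LOC101928335 lies on the X chromosome opposite MID2, a ubiquitin ligase of the TRIM family that binds microtubules. Of its 5 targets, that of shRNA 1 spans the junction of exons 3 and 4 and the others fall in exon 4. LOC101928335 shRNA 3 had 297, 293 and 293 normalized counts before and 126, 139.8 and 137 after selection, so that the selected libraries differed from each other by a coefficient of variation of only 5.50%, the lowest among the depleted shRNAs. LOC101928335 shRNA 5 had 89.0, 85.3 and 70.4 before and 39.5, 36.7 and 26.8 after selection. These falls correspond to a log2(fold change) of 1.13 (standard error 0.14) and 1.27 (standard error 0.29). shRNA 4 fell from 616 ± 9.73 to 429 ± 48.6 (0.53, adjusted p = 0.00636, edgeR) without reaching the limit, and shRNAs 1 and 2 had -0.31 and 0.12. LOC101928335 was the only target of the 9 that still met the candidate rule without input replicate 3. Like TEX41 and ZNF217-AS1, it met the rule whichever selected library was left out. The target of shRNA 3 is present at 1247 places in the genome and that of shRNA 5 at 94. That of shRNA 3 is in exons of 19 genes, of which 7 were matched in a protein-coding transcript.

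ENST00000511234 and ENST00000567151 carry no gene name. ENST00000511234 belongs to a lncRNA gene on chromosome 4 with no protein-coding gene within 1590790 bases, and its 5 targets fall within 224 bases of the spliced transcript, that of shRNA 1 across the junction of exons 2 and 3. ENST00000511234 shRNA 3 had 448, 449 and 425 normalized counts before and 135, 151 and 317 after selection. ENST00000511234 shRNA 5 had 83.0, 100.05 and 94.2 before and 26.9, 18.8 and 46.9 after selection. Selected replicate 3 was the highest for both. This gave a log2(fold change) of 1.09 (standard error 0.28) and 1.54 (standard error 0.36). shRNA 2 shares 9 bases with shRNA 3 and had -0.32 (adjusted p = 0.129, edgeR), and shRNA 1 rose with -0.75 (adjusted p = 0.00940, edgeR), its 3 selected libraries (249.7, 272 and 317) all above its input libraries (143, 177 and 182).

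The 5 targets of ENST00000567151 lie in order on the minus strand at chr2:239929644-239929723, where GENCODE release 44 annotates no gene, between TWIST2, a basic helix-loop-helix transcription factor 97414 bases away, and HDAC4, a histone deacetylase 40141 bases away. ENST00000567151 shRNA 4 had 198, 169 and 166 normalized counts before and 61.1, 57.4 and 129 after selection. ENST00000567151 shRNA 5 had 97.1, 108 and 106 before and 52.1, 42.1 and 22.8 after selection. These targets share 13 of 21 bases and are the only pair with 10 or more shared bases in which both shRNAs were depleted. They had log2(fold change) values of 1.07 (standard error 0.31) and 1.46 (standard error 0.32). The library that kept the most copies was selected replicate 3 for shRNA 4 and replicate 1 for shRNA 5. ENST00000567151 shRNA 3 was enriched, with 184, 186 and 187 normalized counts before and 379, 338 and 255 after selection (log2(fold change) -0.79, standard error 0.17). This call was lost without selected replicate 1 (-0.67), without selected replicate 2 (-0.747, just short of the limit) and with the beta prior of DESeq2 (-0.71). It shares 14 bases with shRNA 2, which had 106 ± 22.6 before and 80.8 ± 12.4 after selection (0.38, adjusted p = 0.264, edgeR). Summed over the 5 shRNAs the representation was 774 ± 23.6 before and 791 ± 39.4 after selection, or 102%, the highest share of the 9 targets. The target of shRNA 3 is present at 2744 places in the genome and that of shRNA 2 at 369, and those of shRNAs 4 and 5 at 2 and 3.

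ENST00000564442 is listed as a non-coding transcript, but its 5 targets all lie on the plus strand at chr1:92865861-92866008, inside exon 13 and the 3′ UTR of RPAP2 in GENCODE release 44, which does not hold ENST00000564442 itself. RPAP2 encodes a phosphatase of the C-terminal domain of RNA polymerase II. On the strand that the guides pair with, each of the 5 targets matched exons of RPAP2 and of no other gene, so an effect through the listed transcript and one through RPAP2 mRNA cannot be told apart. ENST00000564442 shRNA 3 had 70.8, 68.2 and 76.6 normalized counts before and 0, 31.4 and 10.7 after selection. In selected replicate 1 it had no read, and a count of 0 allows up to 3 reads, or 5.39 normalized counts, a limit that covers counting error only since the reads carry no molecular identifiers. ENST00000564442 shRNA 5 had 172, 171 and 180.1 before and 88.0, 66.3 and 69.0 after selection. The log2(fold change) was 2.23 (standard error 0.68) and 1.24 (standard error 0.20), and the coefficient of variation between selected libraries was 114% for shRNA 3, the highest of the 19, and 15.9% for shRNA 5. shRNAs 2 and 4 each share 10 bases with shRNA 3, one on either side, and had -0.09 (345 ± 20.8 before, 367 ± 18.9 after) and 0.24 (382 ± 15.6 before, 321 ± 35.5 after). shRNA 1 rose with -0.46 (adjusted p = 0.0319, edgeR).

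The depleted shRNAs were sparsely represented in the plasmid pool. Their median input level was 102 normalized counts, beside 215 for the 24 other tested shRNAs of the same targets and 283 for all tested shRNAs, and 11 of the 19 fell among the 25% of tested library shRNAs with the lowest input level, below 141. In 6 of the 19 at least 1 selected library had fewer than 10 reads. Outside the 9 targets, 10.8% of the shRNAs with such low input levels were depleted and 13.5% were enriched, beside 2.72% and 0.832% of the 25% with the highest levels. The median log2(fold change) of those depleted was 1.64 at the low and 0.88 at the high levels. The part of input level in the calls was not tested.

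Between the selected libraries the depleted shRNAs varied by a median coefficient of variation of 44%. Against the mean of the input libraries, their median log2(fold change) was 1.42 in selected replicate 1, 1.3 in replicate 2 and 1.4 in replicate 3. The lowest value was found in replicate 1 for 8 shRNAs, in replicate 2 for 6 and in replicate 3 for 5. The shRNAs were called depleted on these same libraries, so these values describe the choice.

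Of the 19 depleted targets, 13 had more than 1 exact match in the genome (68.4%), beside 62.5% of the 24 other tested targets of the same transcripts and 58.3% of all tested shRNAs. Over 100 matches were found for 3 of the 19 depleted targets (15.8%), beside 37.5% of the 24 others and 32.2% of all tested shRNAs. The GC content of the depleted targets had a median of 47.6%, equal to that of the library. When targets at more than 1 place were left out, 2 of the 9, LINC00511 and ENST00000564442, met the candidate rule, and 4 of 766 targets did so in the whole library. TEX41 shRNA 4 and ZNF217-AS1 shRNA 2 are the other depleted shRNAs with a single match, each the sole such shRNA of its target.

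All targets of a transcript were crowded into 73 to 252 bases of RNA. In the 8 targets that could be placed in a transcript, the start positions listed in the library were lower than the positions in that transcript by a constant, from 107 bases in ENST00000511234 to 15122 in the RPAP2 transcript. Of the 15 pairs of targets within a transcript that share at least 1 base, 8 share 10 or more. In 1 of these 8 pairs both shRNAs were depleted, in 5 pairs 1 of them was, and in 2 pairs neither was.

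Library shRNAs outside the 9 targets that share a guide seed with a depleted shRNA offer a comparison that the choice of targets did not use. TEX41 shRNA 2 and ENST00000564442 shRNA 3, against transcripts on different chromosomes, have the same seed ATAGTGA. Both were depleted, but their targets were chosen through these calls, so this is part of the choice. Of 17 other tested shRNAs with this seed, 2 were depleted and 1 was enriched, beside 6.83% and 5.85% of all tested shRNAs. The median log2(fold change) of the 17 was -0.14. The depleted ones were ENST00000542992 shRNA 4, with 60.7, 51.2 and 55.9 normalized counts before and 5.39, 3.59 and 2.01 after selection (log2(fold change) 4.04, standard error 0.47), and NR_122104 shRNA 5, with 57.7, 63.7 and 45.5 before and 19.8, 5.38 and 8.71 after selection (2.43, standard error 0.49). The enriched one was NR_110564 shRNA 3, with 57.7, 75 and 63.1 before and 237, 160.4 and 173 after selection (-1.53, standard error 0.23). shRNAs with this seed thus moved strongly in both directions, and most did not pass the limits.

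For all 19 depleted shRNAs together, 219 tested library shRNAs against other transcripts carried one of the same seeds. Of these, 7 were depleted (3.20%) and 7 enriched, with a median log2(fold change) of -0.06. In the whole library 6.83% were depleted and 5.85% enriched, with a median of -0.01. With the seed shortened to 6 bases, 17 of 376 were depleted (4.52%). The seed TTACAGG of ENST00000382641 shRNA 1 alone accounted for 114 of the 219, of which 2 were depleted and 5 enriched, and AATCACT of LOC101928335 shRNA 3 for 31, of which 1 was depleted. No other tested shRNA carried the seeds of LINC00511 shRNAs 2 and 4. TEX41 shRNA 1, ENST00000511234 shRNA 1 and LOC101928335 shRNA 1 share 1 seed with each other, and none of them was depleted, with a log2(fold change) of -0.18, -0.75 and -0.31.

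Library shRNAs against other transcripts whose target overlaps a depleted target by 10 or more identical bases at its end numbered 52. Of them, 5 were depleted (9.62%) and 4 enriched, beside 6.83% and 5.85% of all tested shRNAs, and no difference from these shares was tested. The median log2(fold change) of the 52 was 0.01. Of these, 38 overlap ENST00000567151 shRNA 4, with 3 depleted and 3 enriched and values from -1.29 to 1.69. Of the 7 that overlap LOC101928335 shRNA 3, 2 were depleted and 1 was enriched. LINC-PINT shRNA 5 and NR2F1-AS1 shRNA 5 were depleted with a log2(fold change) of 1.32 and 0.90, and LINC01205 shRNA 5 was enriched with -1.

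The seeds of 9 of the 43 tested shRNAs of the 9 targets (20.9%) are also the seed of a human microRNA in the RefSeq set, beside 12.5% of all tested shRNAs. They include 4 depleted shRNAs, among them LOC101928335 shRNA 3 with the seed of hsa-miR-34b-3p, LINC00511 shRNA 2 and ENST00000567151 shRNA 4. Among the shRNAs that were not depleted, LINC00511 shRNA 3 has the seed of hsa-miR-1-3p and hsa-miR-206, and ENST00000567151 shRNA 1 has that of hsa-miR-92a-3p and hsa-miR-25-3p, with a log2(fold change) of 0.15 and -0.40. A shared seed is a property of the sequence and does not show that the shRNA acts as that microRNA.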

How the data were processed

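The authors amplified the shRNA cassettes from 3 samples of the plasmid pool and 3 of genomic DNA of selected HUH7 cells, trimmed their reads (Cutadapt 1.4.2), mapped them on the library's shRNAs (BWA 0.7.10) and handled the alignments with SAMtools 1.3, per the labels and the study's methods. The deposited values are raw, unnormalized read counts per shRNA, from 1525256 to 4013368 per library, so reads that match no library shRNA are not in them. PCR duplicates are included, and rare shRNAs are measured less precisely.

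The 9 targets, the seed rule and the lists were chosen with earlier results of these data known. All 7232 shRNAs that averaged 10 or more counts were fitted together by the quasi-likelihood method of edgeR 4.0.16 after TMM normalization (R 4.3.3, no block), with Benjamini-Hochberg adjustment over all 7232. The fit was tested on simulated data. Named are all shRNAs of the 9 targets, those of the same genes under other transcripts, and other library shRNAs only where they overlap a target by 10 or more bases or share the seed of a depleted shRNA and pass the test (at most 4 per seed). The target sequence of 1 depleted shRNA is not reported here. Targets were searched without mismatches in GRCh37, both strands, and, in the same orientation, in transcripts of GENCODE release 44 mapped to GRCh37. Names of NR_ targets that the library does not name came from RefSeq. Alternatives were RLE size factors, library totals, a count filter of 100 or none, DESeq2 1.42.0 (with or without a beta prior), a robust spread, a replicate block, each library left out, and, for the candidate rule and the seed, fold change alone, targets with more than 1 match left out and a seed of 6 bases.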

Additional observations from a re-analysis of the deposited data

How the results depend on the processing

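The counts of depleted (19) and enriched (2) shRNAs, of targets meeting the candidate rule (9), of depleted shRNAs of LINC00511 under other transcripts (0) and of depleted shRNAs with a shared seed (7) moved by no more than 1.5 times under a robust spread, DESeq2 without its beta prior, no filter, library totals or RLE size factors. With a mean count of at least 100, 7 shRNAs were depleted, 0 targets met the rule and 4 shRNAs with a shared seed were depleted, since rare shRNAs are then not tested. With the beta prior of DESeq2, 1 shRNA was enriched and 0 targets met the rule. With targets at more than 1 place left out, 2 targets met it. With a seed of 6 bases, 17 sharing shRNAs were depleted.

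Leaving out 1 library at a time gave 4 to 17 depleted shRNAs, 2 to 3 enriched (not always the same ones), 0 to 7 targets meeting the rule and 5 to 13 depleted shRNAs with a shared seed, and the cause of the drop without an input library was not tested. Over these, the log2(fold change) of RASAL2-AS1 shRNA 3 ran from -0.024 without selected replicate 2 to 0.63, and that of ENST00000511234 shRNA 4 from -0.15 to 0.058 without selected replicate 3, so their direction turned. The labels do not say that same-numbered libraries are pairs. Deviations of same-numbered libraries correlated at -0.0057, 0.0024 and -0.039 over shRNAs. This cannot decide on a pairing, because the input libraries differ by little more than counting noise. With the replicate number as a block, 17 shRNAs were depleted and 7 targets met the rule (2 enriched, 9 depleted with a shared seed). The whole library then had 528 depleted shRNAs. TEX41 shRNA 2 and ZNF217-AS1 shRNA 1 lost the call (adjusted p = 0.0652 and 0.0632, edgeR). Depth limits the rarest shRNAs most, since 6 of the 19 depleted ones had a selected library with under 10 reads.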
